A study of Mus musculus with 4 samples.

Results

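The genes described here are 10 CC chemokine ligands, Ccl2, Ccl3, Ccl4, Ccl5, Ccl6, Ccl7, Ccl9, Ccl12, Ccl17 and Ccl22. They were chosen by symbol from the 21462 genes of the deposited expression table. The rule uses none of their values, but the choice was made with earlier results of these data known. All 10 were listed, and 9 had a mean of at least 10 normalized counts over the 4 libraries and were tested, whereas Ccl4 was below that level. The RNA came from lung smooth muscle cells (SMC) of C57BL/6 mice, from 2 Tet3 mutant animals and 2 control animals, and the comparison asks how inactivation of Tet3 changes transcription in these cells. The TET3 enzyme turns 5-methylcytosine of DNA into its 5-hydroxymethyl form. In the mutants, floxed Tet3 was deleted by a tamoxifen-inducible Cre recombinase (ERT2Cre) driven by the alpha-SMA promoter, the promoter of the smooth muscle actin gene Acta2, and a ROSA26 tdTomato reporter marked the cells in which Cre had acted. By the study's methods, animals without the floxed allele that carried Cre, the reporter or both served as controls. Lung cells were released by enzymes, depleted of CD45+ and Ter-119+ cells with magnetic beads, and sorted as live tdTomato+ cells. The model is therefore limited to cells that use the alpha-SMA promoter, which is also active in myofibroblasts and pericytes. The labels give neither age, sex nor batch. Values are normalized counts, the unit of the deposited table, and are given for replicate 1 and then replicate 2 of a group.

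CC chemokines are small secreted proteins that bind G protein-coupled receptors on leukocytes and direct their migration. They are named for a pair of adjacent cysteines near the amino terminus of the mature protein. In the lung they are made by macrophages, dendritic cells, lymphocytes and, after inflammatory stimuli, by structural cells that include smooth muscle. In the mouse most of these genes lie side by side in clusters on chromosome 11, while Ccl17 and Ccl22 are neighbors on chromosome 8.

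The cysteine pair is what defines the family, so the 42 coding bases around it are shown for each ligand, 5′ to 3′ in the direction of the gene, from GENCODE M21 transcripts on GRCm38. Capitals mark the adjacent cysteine codons, which occur once in each coding sequence.
Ccl2, chr11:82036488-82036529, plus strand: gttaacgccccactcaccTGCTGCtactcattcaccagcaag
Ccl7, chr11:82046520-82046561, plus strand: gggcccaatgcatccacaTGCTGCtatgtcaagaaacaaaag
Ccl12, chr11:82102616-82102657, plus strand: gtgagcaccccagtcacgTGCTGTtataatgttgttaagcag
Ccl5, chr11:83529224-83529265, minus strand: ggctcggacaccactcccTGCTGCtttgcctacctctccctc
Ccl6, chr11:83589368-83589409, minus strand: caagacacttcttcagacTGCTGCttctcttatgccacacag
Ccl9, chr11:83575908-83575949, minus strand: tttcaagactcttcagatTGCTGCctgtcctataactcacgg
Ccl3, chr11:83648634-83648675, minus strand: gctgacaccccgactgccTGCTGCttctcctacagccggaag
Ccl4, chr11:83663464-83663505, plus strand: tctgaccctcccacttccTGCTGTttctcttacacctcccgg
Ccl22, chr8:94746916-94746957, plus strand: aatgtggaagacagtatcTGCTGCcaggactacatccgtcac
Ccl17, chr8:94811194-94811235, plus strand: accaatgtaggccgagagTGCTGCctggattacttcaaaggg
The flanking bases differ between ligands, and this bears on the counting of reads. Identity of whole coding sequences over the 45 pairs of ligands ran from 38.9% to 68.4% with a median of 49.7%. The closest pairs were Ccl3 and Ccl4 at 68.4%, Ccl6 and Ccl9 at 64.6% and Ccl7 and Ccl12 at 63.5%. No 75-base window of the ligands' protein-coding transcripts, the length of a read here, occurred in a transcript of another gene. Other transcripts of the ligands were not searched. Ccl6 alone overlapped a listed gene, E230016K23Rik on the opposite strand, which had 8 and 14 normalized counts in the mutants against 11 and 14 in the controls. Reads over several genes were left out by the authors and use of strand was not stated, so the value of Ccl6 could lack reads from any exonic part that it shares with this neighbor.

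Control replicate 2 stood apart from the other libraries. It had 2 normalized counts of Xist, the transcript of the inactive X chromosome, against 5214 to 6781 in the other libraries, and 774 of the Y-linked gene Ddx3y against 0 in each of the others. By these transcripts control replicate 2 came from a male, and control replicate 1 and both mutants came from females. Sex was therefore not balanced between the groups, and it cannot be told apart from other differences of this library. The squared difference between replicates, divided by their sum, averaged 24.9 in controls and 6.49 in mutants over 10888 genes of high level, where counting alone gives about 1. The estimated numbers of reads assigned to genes were 6.32 to 7.56 M per library, so depth was similar. Tet3 itself had 1534 and 1444 normalized counts in the mutants against 1847 and 1926 in the controls, a log2 fold change of -0.34 (SE 0.10, limma adjusted p = 0.681). All 10 smooth muscle markers were present in every library, with summed levels of 7952 and 7612 in the mutants against 5108 and 6747 in the controls. Markers of other lung cells were present as well, with summed levels of 14899 to 19063 over the libraries for fibroblasts, 9078 to 10903 for endothelium and 10090 to 21275 for alveolar type 2 epithelium, so the sorted cells cannot be taken as smooth muscle alone. Leukocyte transcripts were also present after CD45 depletion, and Ptprc, which encodes CD45, had 2674 and 1885 in the mutants against 2136 and 1364 in the controls.

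As a group, the ligands were higher in the Tet3 mutant libraries, and no single ligand passed the test. In 8 of the 9 tested ligands both mutants lay above both controls, a pattern that 19.6% of all 16659 tested genes showed. Ccl3 was the exception. The median log2 fold change (mutant over control, on log2(value + 1)) was 0.94 over the 9 tested ligands against -0.01 over all tested genes. With limma, 0 of the 9 ligands passed an adjusted p of 0.05, as did 0% of all tested genes, and adjusted p-values of the ligands ran from 0.681 to 0.955. At an unadjusted p under 0.05, 5 ligands were higher, namely Ccl7, Ccl9, Ccl12, Ccl17 and Ccl22, beside 3.83% of all tested genes, and 0 were lower, beside 2.85%. Counted either way, 6.68% of all tested genes had such a p. Control replicate 2 had the lowest value of the 4 libraries in 9 of 9 tested ligands, as it did in 33.1% of tested genes. Without control replicate 2 the median was 0.49 and 1 ligand had an unadjusted p under 0.05, as did 5.37% of all tested genes in that fit. Leaving out Tet3 mutant replicate 2 left 0 such ligands and 2.49% of all genes, and leaving out Tet3 mutant replicate 1 left 3 ligands and 1.64% of all genes. Both groups hold 2 animals each, and p-values measure the spread between these libraries only.

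**Figure D1:**
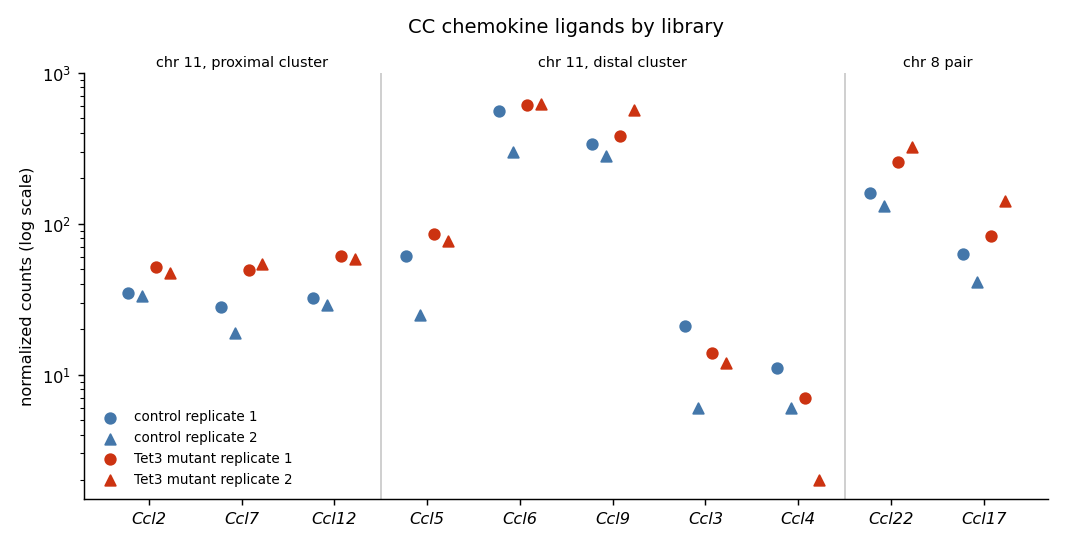
Normalized counts (log scale) of the 10 ligands in each library, grouped by locus, with blue for control and red for Tet3 mutant, circles for replicate 1 and triangles for replicate 2. Both red points lie above both blue points in 8 ligands, while Ccl3 (6 to 21) and Ccl4 (2 to 11) overlap at the lowest levels.

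The stretch near 82 Mb of chromosome 11 (chr11:82035571-82103400, GRCm38) holds Ccl2, Ccl7 and Ccl12, which attract monocytes mainly through the receptor CCR2. It also contains Ccl11, which is not among the 10 ligands and had overlapping groups, at 186 and 208 normalized counts in the mutants against 200 and 85 in the controls. All 3 CCR2 ligands were higher in both mutants than in either control. Ccl2 and Ccl12 had less spread within groups than their counting errors. The summed level of Ccl2, Ccl7 and Ccl12 was 162 and 159 normalized counts in the mutants against 95 and 81 in the controls, a 1.82-fold higher mean. Against control replicate 1 alone the mutant mean of this sum was 1.69-fold higher.

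Ccl2 (ENSMUSG00000035385, chr11:82035571-82037453) encodes the principal monocyte attractant. It had 52 and 47 normalized counts in the mutants against 35 and 33 in the controls, with means of 49.5 ± 3.54 and 34 ± 1.41 (SD, n = 2). The groups did not overlap, and the log2 fold change was 0.53 (SE 0.30, 95% interval -0.23 to 1.29, limma adjusted p = 0.689). Ccl7 (ENSMUSG00000035373, chr11:82045712-82047525), a ligand of several CC receptors including CCR2, had 49 and 54 in the mutants against 28 and 19 in the controls. Its log2 fold change of 1.12 (SE 0.36, 95% interval 0.21 to 2.04) was the largest among the 9 tested ligands, with an unadjusted p of 0.0249 and a limma adjusted p of 0.681. Ccl12 (ENSMUSG00000035352, chr11:82101845-82103400), a mouse CCR2 ligand close to Ccl2 in function, had 61 and 58 in the mutants against 32 and 29 in the controls. Its groups were at 59.5 ± 2.12 and 30.5 ± 2.12 (SD, n = 2), a smaller spread than the counting errors of 5.52 to 8.15. Such closeness of 2 values is no measure of reproducibility. The log2 fold change of Ccl12 was 0.94 (SE 0.29, unadjusted p = 0.0232, limma adjusted p = 0.681). Leaving out each library in turn kept Ccl12 between 0.87 and 1.01 and Ccl7 between 0.85 and 1.39.

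The second stretch near 83 Mb of the same chromosome (chr11:83525778-83664683) holds Ccl5, Ccl9, Ccl6, Ccl3 and Ccl4, which attract monocytes, T cells and other leukocytes. Ccl5, Ccl6 and Ccl9 were higher in both mutants than in either control, Ccl3 and Ccl4 were not, and the controls differed from each other. Their summed level was 1105 and 1283 in the mutants against 987 and 615 in the controls, 1.49-fold higher in the mutants with both controls and 1.21-fold higher against control replicate 1 alone.

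Ccl6 and Ccl9, closely related CCR1 ligands made by macrophages and other myeloid cells, had the highest normalized counts and so the smallest relative counting errors. Ccl6 (ENSMUSG00000018927, chr11:83587882-83593087) had 615 and 622 normalized counts in the mutants against 556 and 297 in the controls. The mutants, at 618.5 ± 4.95 (SD, n = 2), were closer than their counting errors of 25.9 and 23.7. The controls spread over 426.5 ± 183 (SD, n = 2), beyond their counting errors of 23.1 and 17.7. The log2 fold change was 0.60 (SE 0.30, limma adjusted p = 0.683), and it was 0.15 without control replicate 2. Ccl9 (ENSMUSG00000019122, chr11:83572919-83578636) had 383 and 570 in the mutants against 338 and 281 in the controls, so that here the mutants spread more. Its log2 fold change was 0.60 (SE 0.23, unadjusted p = 0.0485, limma adjusted p = 0.681), and it was 0.31 without Tet3 mutant replicate 2.

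Ccl5 (ENSMUSG00000035042, chr11:83525778-83530518), a product of T cells and NK cells that attracts T cells and monocytes, had 86 and 77 in the mutants against 61 and 25 in the controls. The groups did not overlap, and the controls were farther apart than the mutants. The log2 fold change was 1.04 (SE 0.47, 95% interval -0.18 to 2.25, limma adjusted p = 0.681), and it was 0.41 without control replicate 2. Ccl3 (ENSMUSG00000000982, chr11:83647844-83649355), an inflammatory macrophage product, had 14 and 12 in the mutants against 21 and 6 in the controls. Both mutants lay between the controls, and the log2 fold change of 0.17 (SE 0.68, limma adjusted p = 0.955) became -0.66 without control replicate 2 and 1.00 without control replicate 1. Ccl4 (ENSMUSG00000018930, chr11:83662584-83664683), an inflammatory chemokine next to Ccl3, had 7 and 2 in the mutants against 11 and 6 in the controls, and the lower mutant value was under the floor of 3. At such levels a difference was not detectable. Fitted with all genes of a mean of at least 1, its log2 fold change was -0.90 (SE 0.70, limma adjusted p = 0.755).

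The pair on chromosome 8 (chr8:94745590-94812036), Ccl22 and Ccl17, encodes the ligands of CCR4, which attract type 2 helper and regulatory T cells and are made by dendritic cells and macrophages. Its sum was 339 and 464 normalized counts in the mutants against 223 and 172 in the controls, 2.03-fold higher with both controls and 1.80-fold higher against control replicate 1 alone. Of the stretches examined, this one had the largest fold. Ccl22 (ENSMUSG00000031779, chr8:94745590-94751699) had 256 and 322 in the mutants against 160 and 131 in the controls, with means of 289 ± 46.7 and 145.5 ± 20.5 (SD, n = 2). The lowest mutant exceeded the highest control, and the log2 fold change of 0.98 (SE 0.20, 95% interval 0.46 to 1.51) came with the smallest unadjusted p of the 9 tested ligands, 0.00469, and a limma adjusted p of 0.681. It stayed between 0.82 and 1.15 when each library was left out. Ccl17 (ENSMUSG00000031780, chr8:94810453-94812036) had 83 and 142 in the mutants against 63 and 41 in the controls. Its mutants differed from each other by more than its controls did, and the log2 fold change was 1.08 (SE 0.39, unadjusted p = 0.0375, limma adjusted p = 0.681), with a range of 0.70 to 1.46 over the libraries left out.

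**Figure D2:**
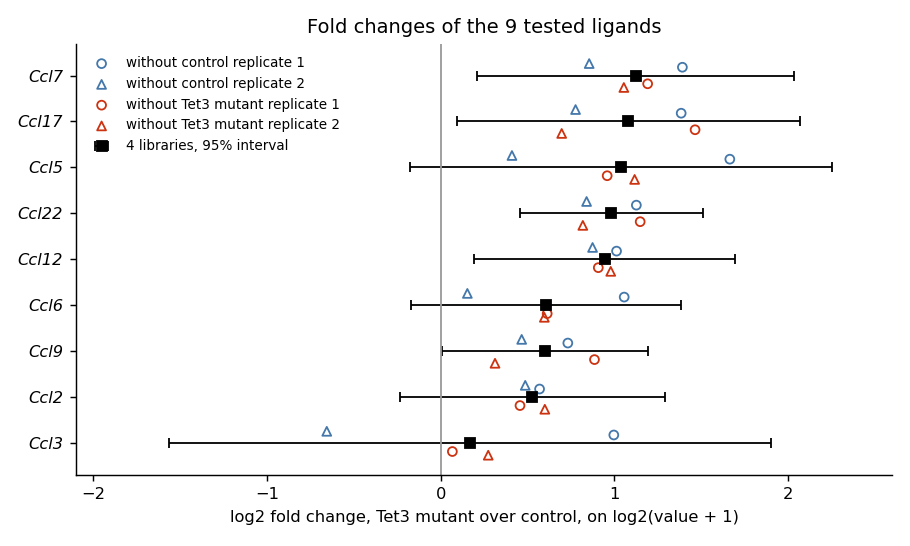
Log2 fold change of the 9 tested ligands (filled squares, with 95% intervals from limma, before adjustment) and the same value with 1 library left out (open symbols). The intervals of Ccl7, Ccl9, Ccl12, Ccl17 and Ccl22 lie above 0, and in Ccl3, Ccl5 and Ccl6 the values without control replicate 1 and without control replicate 2 lie far apart.

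The levels of different ligands were compared per kilobase of exon. In controls Ccl6 was highest at 237.6 ± 102 normalized counts per kilobase (SD, n = 2), followed by Ccl9 at 101.6 ± 13.2, Ccl17 at 101.2 ± 30.3, Ccl22 at 62.6 ± 8.82 and Ccl12 at 56.8 ± 3.95. Ccl5 at 44.8 ± 26.5, Ccl2 at 29.9 ± 1.24, Ccl7 at 29.3 ± 7.95, Ccl3 at 17.6 ± 13.9 and Ccl4 at 12.9 ± 5.36 followed. Among neighbors in this order, only Ccl6 and Ccl9, and Ccl17 and Ccl22, had control values that did not overlap. In mutants Ccl6 again led at 344.6 ± 2.76 per kilobase, and Ccl17 at 218.9 ± 81.2 had a higher mean than Ccl9 at 156.5 ± 43.4, with overlapping values. Ccl22 reached 124.3 ± 20.1 and Ccl12 110.8 ± 3.95. On the scale of mean normalized counts, which sets the precision of each test, Ccl6 stood at percentile 73.9 of the tested genes, Ccl22 at 51, Ccl12 at 21.8, Ccl2 at 20.7 and Ccl3 at 4.26.

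Over the 4 libraries the median profile of the 9 tested ligands, each centered on its own log2 mean, was 0.38 and 0.49 in the mutants against -0.17 and -0.70 in the controls. Of 12054 genes with a mean of at least 50, Pdgfrl, Wfdc1, Lrrc3, Clec5a and Lcp2 had the most similar profiles, at root mean square distances of 0.027, 0.039, 0.043, 0.050 and 0.069. Pdgfrl, a gene related to the PDGF receptors, had 206 and 217 normalized counts in the mutants against 144 and 96 in the controls. Wfdc1, a secreted protein with a protease inhibitor motif, had 179 and 186 against 122 and 79, and Lrrc3, a leucine-rich repeat protein, had 80 and 83 against 55 and 35. These genes are not markers of leukocytes, whereas the next ones are expressed in them. Clec5a encodes a myeloid lectin receptor and had 148 and 171 normalized counts in the mutants against 99 and 68 in the controls. Lcp2, the leukocyte signaling adaptor SLP-76, had 452 and 457 in the mutants against 329 and 218 in the controls. With 4 libraries a likeness rests on few points, and 3.24% of the compared genes were as near to the median profile as the median ligand was.

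Most marker lists of leukocytes and that of smooth muscle had a median log2 fold change above 0, as the ligands had. Those of fibroblasts and endothelium were also above 0, at 0.19 and 0.08. The lists of alveolar type 2 epithelium, of mast cells and basophils and of dissociation stress had medians below 0. No marker passed an adjusted p of 0.05 with limma. In bulk samples fewer cells of a type and less RNA per cell cannot be told apart. Of 10 interstitial macrophage and monocyte markers, 9 had both mutants above both controls, against 19.6% of all tested genes. Their summed level was 6773 and 7649 in the mutants against 5674 and 5377 in the controls, and the 2 most abundant, Csf1r and Ccr2, had log2 fold changes of 0.26 and 0.41. The 10 alveolar macrophage markers, led by Mrc1 and Itgax, summed to 4880 and 5775 in the mutants against 4884 and 3057 in the controls, with 3 of 10 higher in both mutants, a share nearer to that background, and overlapping sums. The dendritic cell markers, led by Zbtb46 and Itgae, summed to 2495 and 2730 in the mutants against 1590 and 2042 in the controls, and 5 of 9 tested were higher in both mutants. T cell and NK cell markers, led by Cd4 and Cd2, summed to 908 and 955 in the mutants against 901 and 240 in the controls. Control replicate 2 was the lowest, as it was for each of the 9 tested ligands. The neutrophil markers, led by Mmp9 and Csf3r, summed to 2025 and 1455 in the mutants against 1153 and 839 in the controls, with 7 of 9 higher in both mutants. The 5 pan-leukocyte markers, led by Ptprc and Laptm5, summed to 4917 and 4424 in the mutants against 4222 and 3027 in the controls, and 4 were higher in both mutants. Smooth muscle markers, led by Myh11 and Smtn, were also higher, with 7 of 10 higher in both mutants, while 6 of 7 alveolar type 2 epithelial markers were lower in both, against 19.5% of all tested genes. Endothelial markers had a median log2 fold change of 0.08, those of mast cells and basophils -0.34, and the sums of B cell markers overlapped. None of the markers was at 0 in all libraries.

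**Figure D3:**
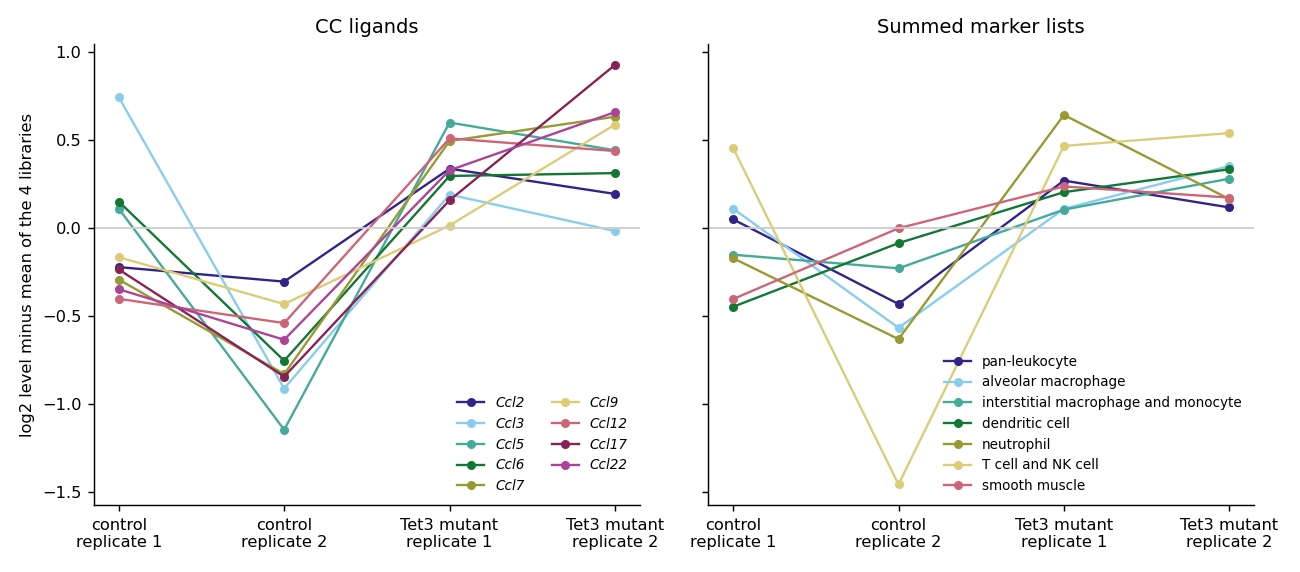
Left, log2(value + 1) of the 9 tested ligands minus the mean of the 4 libraries; right, the same for the log2 of 7 summed marker lists. Lines join the values of 1 gene or list and imply no order; control replicate 2 is the lowest library for every tested ligand and for the summed leukocyte, alveolar macrophage, interstitial macrophage, neutrophil and lymphocyte markers, but not for dendritic cell or smooth muscle markers.

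Ligand levels were next expressed per 100 normalized counts of the marker list of a cell type known to make them, a calculation chosen after the values were seen. Ccl2, Ccl7 and Ccl12 together gave 1.67 and 1.51 per 100 of the interstitial macrophage and monocyte markers in controls and 2.39 and 2.08 in mutants, a 1.41-fold higher mean with no overlap. Ccl6 and Ccl9 gave 18.3 and 18.9 per 100 of the alveolar macrophage markers in controls and 20.4 and 20.6 in mutants, so the excess in mutants was 1.10-fold on this scale. That marker sum was led by Mrc1, at 2038 in control replicate 1 and 1739 in control replicate 2. Siglecf, Marco, Chil3 and Ear1 fell more than the rest of the list, from 188, 119, 776 and 62 to 22, 17, 136 and 1. The ratio therefore depends on the markers summed. Ccl5 gave 6.77 and 10.4 per 100 of the T cell and NK cell markers in controls and 9.47 and 8.06 in mutants, and the groups overlapped. Ccl17 and Ccl22 gave 14.0 and 8.42 per 100 of the dendritic cell markers in controls and 13.6 and 17.0 in mutants, again with overlap. All 10 ligands gave 30.9 and 28.7 per 100 of the pan-leukocyte markers in controls and 32.7 and 43.1 in mutants. These ratios are a description, and the part of cell composition in the ligand levels was not tested.

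**Figure D4:**
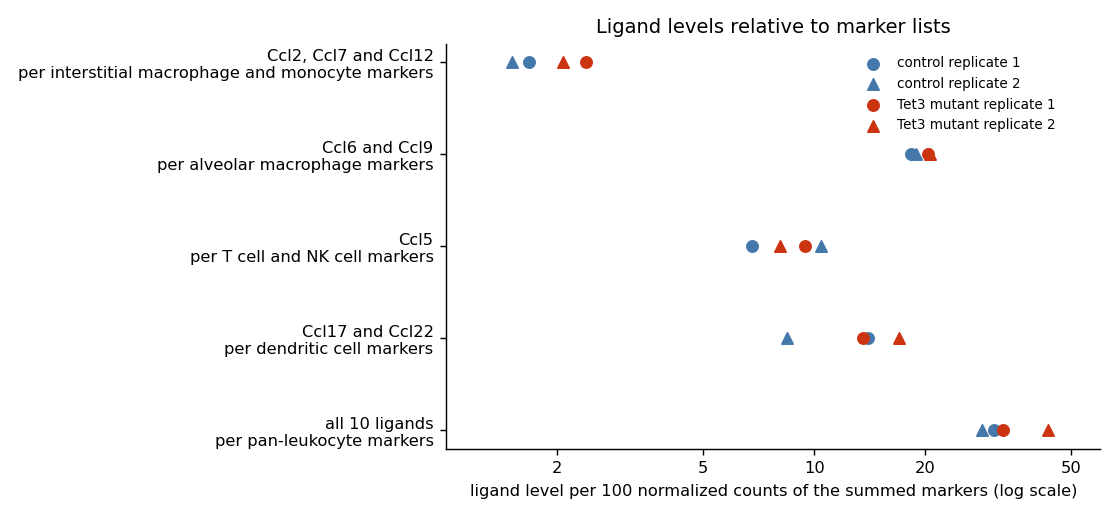
Ligand levels per 100 normalized counts of the summed markers of a cell type (log scale), in the colors and symbols of the plot of ligand values by library. The red points lie above the blue points for Ccl2, Ccl7 and Ccl12 (1.41-fold), for Ccl6 and Ccl9 (1.10-fold) and for all 10 ligands, and overlap with them for Ccl5 and for Ccl17 and Ccl22.

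The other genes of the pathway were taken from lists. Of 14 other CC ligands, 8 were in the table and 7 were tested, and 3 were higher and 2 lower in both mutants, where 19.6% and 19.5% of all tested genes were, with a median log2 fold change of 0.51 that was 0.10 without control replicate 2. Ccl8, a monocyte attractant near Ccl12, had 84 and 159 normalized counts in the mutants against 73 and 61 in the controls (log2 fold change 0.78). Ccl11, the eosinophil attractant that lies between Ccl7 and Ccl12, had a log2 fold change of 0.59 that became -0.02 without control replicate 2. The homeostatic CCR7 ligands Ccl19 and Ccl21a had log2 fold changes of 1.05 and 0.51, and Ccl19 was low, at 19 and 11 in the mutants against 7 and 6 in the controls. Ccl21a has near-identical copies in the mouse genome, which makes its value of 148 and 137 in the mutants against 106 and 94 in the controls uncertain. Ccl25, a ligand of CCR9, was lower in both mutants, at 134 and 115 in the mutants against 197 and 165 in the controls (log2 fold change -0.53, limma adjusted p = 0.681).

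Among 7 tested CC receptors, which are carried by the leukocytes that the ligands attract, 2 had an unadjusted p under 0.05 with limma. These were higher in both mutants. Of all tested genes, 3.83% were higher at such a p and 19.6% had both mutants above both controls. Ccr1, the receptor for Ccl6 and Ccl9, had 168 and 223 normalized counts in the mutants against 88 and 70 in the controls, with a log2 fold change of 1.29 (SE 0.25, unadjusted p = 0.00341, limma adjusted p = 0.681). Ccr2, the receptor for Ccl2, Ccl7 and Ccl12, had 1231 and 1193 in the mutants against 955 and 875 in the controls (0.41 on the log2 scale), and it is also in the monocyte marker list. The remaining receptors showed no common direction, with Ccr6 at -0.57 and Ccr7 at 0.36, and Ccr4, the receptor for Ccl17 and Ccl22, had 7 and 9 in the mutants against 24 and 6 in the controls. Its log2 fold change was -0.56, and it was 0.35 without control replicate 1. The receptors' median of 0.26 was -0.08 without control replicate 2 and 0.04 without Tet3 mutant replicate 1.

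The 4 tested genes that remove or process ligands had a median log2 fold change of -0.09. The scavenging receptors Ackr2 and Ackr4 were at -0.05 and -0.13, the chemokine-binding receptor Ccrl2 at 0.31 and the peptidase Dpp4, which trims chemokines, at -0.55. The 20 tested genes from endosomal Toll-like receptors to NF-kB, a pathway that induces several of these ligands, had a median of 0.04, with 5 higher and 4 lower in both mutants, shares close to the 19.6% and 19.5% of all tested genes. Irf5, a transcription factor of that pathway, had 519 and 631 normalized counts in the mutants against 445 and 443 in the controls (log2 fold change 0.37, unadjusted p = 0.0490, limma adjusted p = 0.681). Tlr9, Irak4, Tlr3 and Unc93b1 had log2 fold changes of 0.42, 0.34, 0.32 and 0.24. The 4 genes lower in both mutants were Traf6 at -0.27, Chuk at -0.08, Irak1 at -0.08 and Map3k7 at -0.07. Tlr7 and Tlr8 had the largest log2 fold changes of the list, 0.74 and 0.71, with overlapping groups. Without control replicate 2 they were at 0.06 and -0.09. The groups of Myd88 overlapped as well.

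The promoters of the ligands were searched for 5 motifs on both strands. RefSeq promoters (GRCm38.p6) were matched for 6 of the 10 ligands, Ccl3, Ccl6, Ccl9, Ccl12, Ccl17 and Ccl22, and the 250 bases before the start were read. The core of ETS factor sites, GGAAGT, was found in 5 of these 6, all but Ccl17, and in 19.7% of 32851 promoters. Ccl3, which has the core, had overlapping groups (log2 fold change 0.17). Ccl17, which lacks it, was higher in both mutants (1.08). A link between motifs and ligand levels was not tested. The other motifs were found in fewer ligands. TATAAA was in Ccl9 and Ccl12 (12.4% of promoters), TGANTCA of AP-1 in Ccl9 (6.75%), the NF-kB consensus in Ccl9 (7.25%), and the spacing bound by STAT6, TTC and GAA with 4 bases between them, in Ccl17 (5.85%). The 120 bases before the start annotated in the deposited table are shown for the 4 ligands with an ETS core in them, with the core, or its reverse complement ACTTCC, in capitals.
Ccl6, chr11:83593088-83593207, minus strand: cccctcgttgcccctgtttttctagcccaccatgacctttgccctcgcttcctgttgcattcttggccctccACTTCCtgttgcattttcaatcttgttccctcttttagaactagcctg
Ccl9, chr11:83578637-83578756, minus strand: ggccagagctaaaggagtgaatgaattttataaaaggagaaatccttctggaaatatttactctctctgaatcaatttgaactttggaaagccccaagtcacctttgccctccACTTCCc
Ccl12, chr11:82101725-82101844, plus strand: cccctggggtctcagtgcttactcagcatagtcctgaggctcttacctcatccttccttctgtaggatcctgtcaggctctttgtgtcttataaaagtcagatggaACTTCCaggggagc
Ccl22, chr8:94745470-94745589, plus strand: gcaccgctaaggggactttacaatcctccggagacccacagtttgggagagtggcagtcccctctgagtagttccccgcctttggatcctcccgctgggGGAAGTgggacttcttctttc
The core began 48 bases before the end of the stretch in Ccl6, 7 in Ccl9, 14 in Ccl12 and 21 in Ccl22. In Ccl22 a further 94 bases lie between the end of the stretch and the RefSeq start used in the search. In the others the stretch ends at that start. On the strand of the gene, TATAAA began 92 bases before the end of the stretch in Ccl9 and 31 in Ccl12. It lay upstream of the core in both, at unlike distances. A match of letters is a description of the sequence and not a measured site, and neighboring ligand genes share ancestry, so their promoters are not independent of each other.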

How the data were processed

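Genotype labels gave the group of each of the 4 libraries, and titles gave the replicate number. By their methods and processing notes, the authors depleted ribosomal RNA, made stranded total RNA libraries, trimmed single-end reads with Trimmomatic 0.36, aligned them with STAR 2.6.0c to GRCm38 and counted exon reads per gene with featureCounts (Subread 1.6.0), leaving out reads with several locations or genes. The deposited values are a score: counts scaled between libraries with DESeq2 and rounded by the authors. Use of strand in counting was not stated.

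Scaling factors estimated from the spacing of low values, 0.961 and 1.05 for the controls, 1.09 and 0.901 for the mutants, gave 7.29, 6.81, 6.32 and 7.56 M assigned reads from deposited totals of 7003231, 7164573, 6893578 and 6805272 in the same order. Factors below 1 merge read numbers, which prevented recovery of raw counts and any count test. A floor of 3 and counting errors describe counting alone, as the sources name no molecular identifiers that would remove PCR copies.

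The 16659 genes with a mean of at least 10 were fitted with limma 3.58.1 (R 4.3.3, eBayes with a trend) on log2(value + 1), which understates changes of low genes, with Benjamini-Hochberg adjustment at 0.05. This takes the place of the authors' test on raw counts. Scripts were tested on simulated data. The ligands and lists were chosen with earlier results of these data known. Named genes were all ligands, Tet3, Xist and Ddx3y, up to 5 genes of smallest p per pathway list, the 2 most abundant markers of each list given beside a result, and the 5 genes of most similar profile. E230016K23Rik, Siglecf, Marco, Chil3 and Ear1 were added after their values were seen. So were further genes of the Toll-like receptor list (Traf6, Chuk, Irak1, Map3k7, Tlr7, Tlr8 and Myd88). The lists also covered B cells, mast cells and basophils, endothelium, fibroblasts and dissociation stress. Same-numbered replicates deviated together weakly, with a correlation of 0.134 across 16659 genes for 2 pairs, and only share a number. Alternatives were a pseudocount of 0.5 or 8, a minimum mean of 1 or 50, scaling by TMM or to equal totals, no trend, a replicate block and omission of each library. Ccl1, Ccl20, Ccl21b, Ccl21c, Ccl26, Ccl27b and Ly6g were not analysed here, and 1 gene of the receptor list is not reported here. Coordinates are those of the deposited table, on GRCm38, and exon lengths came from GENCODE M21.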

Additional observations from a re-analysis of the deposited data

How the results depend on the processing

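No ligand passed an adjusted p of 0.05 with limma under any setting. In fits of all 4 libraries the smallest limma adjusted p of a ligand ran from 0.368 with a replicate block to 0.718 at a minimum mean of 1. Without the trend 1 gene of all tested passed, and it was not a ligand. At a mean of at least 50, where 5 ligands were tested, 3 had an unadjusted p under 0.05 with limma. In that fit 6.85% of all tested genes had such a p. Leaving out each library gave a median of 0.49 to 1.06 for the ligands. In these fits the lone library of a group is assumed to vary like the other group. The same omissions gave medians of 0.10 to 0.67 for the other CC ligands, -0.084 to 0.47 for the receptors, -0.43 to 0.064 for the genes that remove or process ligands and 0.047 to 0.10 for the Toll-like receptor list, which was 0.090 at equal totals. They gave -0.66 to 1.00 for Ccl3, -0.024 to 1.20 for Ccl11, -0.084 to 0.81 for Ccr7, -1.48 to 0.35 for Ccr4, -0.24 to 0.15 for Ackr2 and -0.91 to 0.66 for Ackr4, and Ackr2 was 0.0010 at equal totals. The causes were not tested. With a replicate block, which rests on shared numbers only, the ligands' median was 0.94 and 0 ligands passed the adjustment. There 4 ligands had an unadjusted p under 0.05 with limma, as did 1637 genes, or 9.83% of all tested. Without the block 1112 genes had such a p, or 6.68%. The other pseudocounts, filters and scalings kept the ligands' median between 0.77 and 0.99. With 2 libraries per group, 95% intervals of single ligands were wide, and the ligands of lowest level, Ccl3 and Ccl4, gave the least information.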

Other observations

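Among the marker lists not described above, those of B cells had a median log2 fold change of 0.60 that was -0.54 without control replicate 2, and their summed level was 1208 and 1005 normalized counts in the mutants against 1463 and 593 in the controls. Endothelial and fibroblast markers had medians of 0.08 and 0.19, those of 3 tested mast cell and basophil genes -0.34, and those of dissociation stress -0.24. Alveolar type 2 markers, which label surfactant-producing epithelium, summed to 10090 and 12776 in the mutants against 14293 and 21275 in the controls, with a median of -0.53.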
